A study of Homo sapiens with 7 samples.

Results

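The SPARC family is a group of secreted glycoproteins named after SPARC (also called osteonectin or BM-40). Its members carry a follistatin-like domain and an extracellular calcium-binding domain, and they act between cells and the extracellular matrix rather than as structural fibres. The 8 genes described here are SPARC, its closest relative SPARCL1 (hevin), FSTL1 (follistatin-like 1), the SMOC genes SMOC1 and SMOC2, and the testican genes SPOCK1, SPOCK2 and SPOCK3. They were taken as 8 of 18646 genes on the arrays, by the rule that a probe's annotation gives exactly 1 symbol and that this symbol is one of the members, which found 10 of 29341 such probes. The set was selected on measured values of these arrays, the ratio of FSTL1 in DLD1 cells and of SPARC after UHRF1 knockdown, so those values are described below without a test.

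SPARC binds collagen and modulates how cells attach to the matrix, and in colorectal and pancreatic tumours its promoter has been found methylated and the gene silent. FSTL1 binds BMP ligands and was first found as a gene induced by TGF-beta. DNMT1 copies DNA methylation onto newly made DNA strands, and UHRF1 brings it there. The arrays give RNA ratios after either was targeted. They do not show whether a gene was silent before or whether it depends on that copying.

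The series holds 7 two-colour arrays from 4 established colorectal cancer cell lines. In DLD1, HT29 and RKO cells, a short hairpin RNA (shRNA) against DNMT1, number 49 on one array and number 51 on another, was compared with a non-silencing control of the same line, giving 2 arrays per line. In HCT116 cells 1 array compared an shRNA against UHRF1 with its control. That label gives a knockdown efficiency of 60%, and its title carries d14, which is not explained. The knockdown RNA carried Cy3 with shRNA 49 and Cy5 with shRNA 51 and with the UHRF1 shRNA, so shRNA and dye orientation cannot be told apart. No label says that arrays came from separate cultures. All p-values therefore reflect only how these arrays vary, and that variation may be technical.

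Each value is a log2 ratio, with the knockdown likely over the control, where 1 means 2-fold higher RNA after knockdown. The labels do not state this direction. It rests on DNMT1 itself, which lay between -3.27 and -0.92 wherever it was targeted. For the UHRF1 array it rests on 4 UHRF1 probes that disagree and is less certain. The probes annotated to one UHRF1 sequence record read -3.10 and -2.06, and those annotated to another read -0.18 and 0.68. The value of 0.68 is held by 16 probes of that array. Ratios hold no expression levels, so the colonic identity of the lines could not be checked on their markers, and levels of different genes cannot be compared. On every array 34% to 44% of the ratios are held, to the last digit, by more than 1 probe, for a reason that is not given in the sources used here. Below these are called shared ratios. Of the 70 values of the members' 10 probes, 6 were missing and 34 were shared. FSTL1 has none of either.

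The upstream sequences of a pair of members are shown first, because the targeted proteins act in methylation of CpG dinucleotides and FSTL1 and SPARC differ in how many these windows hold. They are the 250 bases before the annotated start of each gene, from RefSeq (GRCh38.p14, minus strand, 5′ to 3′, at chr3:120450993-120451242 for FSTL1 and chr5:151686916-151687165 for SPARC), with each CpG in capitals.
FSTL1: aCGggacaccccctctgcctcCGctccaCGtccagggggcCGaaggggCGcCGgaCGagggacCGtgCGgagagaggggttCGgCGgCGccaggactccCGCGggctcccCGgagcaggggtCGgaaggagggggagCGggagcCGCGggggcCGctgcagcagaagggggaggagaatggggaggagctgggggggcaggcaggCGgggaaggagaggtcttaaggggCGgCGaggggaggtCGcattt
SPARC: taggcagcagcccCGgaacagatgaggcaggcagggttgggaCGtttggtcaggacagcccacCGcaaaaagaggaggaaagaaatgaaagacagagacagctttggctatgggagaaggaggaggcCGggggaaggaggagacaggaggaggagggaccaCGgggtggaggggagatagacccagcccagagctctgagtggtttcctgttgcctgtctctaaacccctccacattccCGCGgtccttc
The FSTL1 window holds 24 CpG and the SPARC window 7, against a median of 11 over 35114 windows of the same kind. As many CpG as FSTL1 or more are found in 23.7% of all windows, and as many as SPARC or more in 58.9%. In SMOC2 the window holds 24, in SMOC1 17, in SPARCL1 1, in SPOCK2 5 and 11 for its separate starts, and in SPOCK3 between 10 and 21 over 3 starts. SPOCK1 was not looked at in this way. CpG after the start were not counted, so the windows do not give the CpG content of a whole promoter. Methylation was not measured on these arrays, and the CpG number is a description of the reference sequence, not of these cells.

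FSTL1 was the member with the highest ratios under DNMT1 knockdown in every line. Its single probe (A_23_P212696) read 5.96 with shRNA 49 and 7.57 with shRNA 51 in DLD1, or 62.1-fold and 189-fold. In HT29 it read 3.47 and 4.60, or 11.1-fold and 24.3-fold. In RKO it read 2.26 and 2.85, or 4.79-fold and 7.20-fold. Both DLD1 arrays lay above both HT29 arrays, and these above both RKO arrays, with the DLD1 values being those FSTL1 was chosen on. The share of all genes whose lines separate in such a way was not counted. Nothing is therefore read from such an order, for FSTL1 or for the members below. In HCT116 cells, on the UHRF1 array, FSTL1 stood at -0.04.

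From the highest ratio down, FSTL1 had rank 1 in DLD1 with shRNA 49 and rank 4 with shRNA 51. The rank was 26 and 87 in HT29 and 155 and 500 in RKO, among 17001 to 18600 genes per array. After UHRF1 knockdown its rank was 10618 of 18175, or 7558 with the direction of that array turned. The ranks on the DLD1 arrays are what drew attention to the gene and carry no test.

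FSTL1 was chosen on its DLD1 ratios, not on those of HT29 and RKO. Members were chosen with earlier results of these data known, and the lines share shRNAs and dye layout. The HT29 and RKO arrays are therefore not a fully separate check. Over them FSTL1 averaged 3.29 ± 0.38 (SE, n = 4 arrays, limma), with all 4 arrays above 2-fold. This mean did not pass the test over all genes (adjusted p = 0.150, unadjusted p = 0.000474), where 0.106% of 15985 genes passed and all 17 of them were higher. In 0.357% of these genes every one of the 4 arrays was at least 2-fold higher. A lowest value of 2.26 or more was found for 16 genes, FSTL1 included. Within HT29 alone the coefficient was 4.03 ± 0.28 (adjusted p = 0.0659), and within RKO 2.55 ± 0.28 (adjusted p = 0.113), both from a limma fit in which the lines share 1 spread per gene (n = 2 arrays per line). That spread is estimated in part from the DLD1 arrays on which FSTL1 was chosen, so these p-values are not free of the choice, while the fit over HT29 and RKO leaves those arrays out. Of all genes 0.017% passed within HT29 and 0.0454% within RKO.

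The calls of FSTL1 in these lines depended on the processing, while its sign did not. The p-values within HT29 and within RKO keep the limit just given, a spread drawn in part from the DLD1 arrays, so no call is read from them. In HT29 the adjusted p fell to 0.00583 with shared ratios left out and to 0.0286 when only genes with a value on all 6 arrays were tested. It was also under the threshold, at 0.0317 and 0.0498, without the RKO array with shRNA 49 or with shRNA 51. It was 0.347 without the shRNA term and at most 0.571 over all alternatives. In RKO it was 0.0131 without shared ratios, and the coefficient there was 2.35 after quantile normalization and 2.16 or 2.95 without the RKO array with shRNA 49 or with shRNA 51. Over HT29 and RKO together, leaving out the HT29 array with shRNA 51 or the RKO array with shRNA 51 brought it to 0.0292 and 0.0439, and leaving out either shRNA 49 array to 0.902 and 0.890. The mean lay between 2.86 and 3.73 in these fits.

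Over all 3 lines FSTL1 averaged 4.45 with an SD of 2.02 over the 6 arrays (SE of the fit 0.68). No p is given for this mean, since it includes the DLD1 arrays. At least 2-fold higher on all 6 arrays were 0.184% of 15793 genes, and FSTL1 was 1 of 8 genes with no value under 2.26. In DLD1 its coefficient was 6.76 ± 0.28 (SE, n = 2 arrays), given for description, where 0.0227% of all genes passed.

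**Figure D1:**
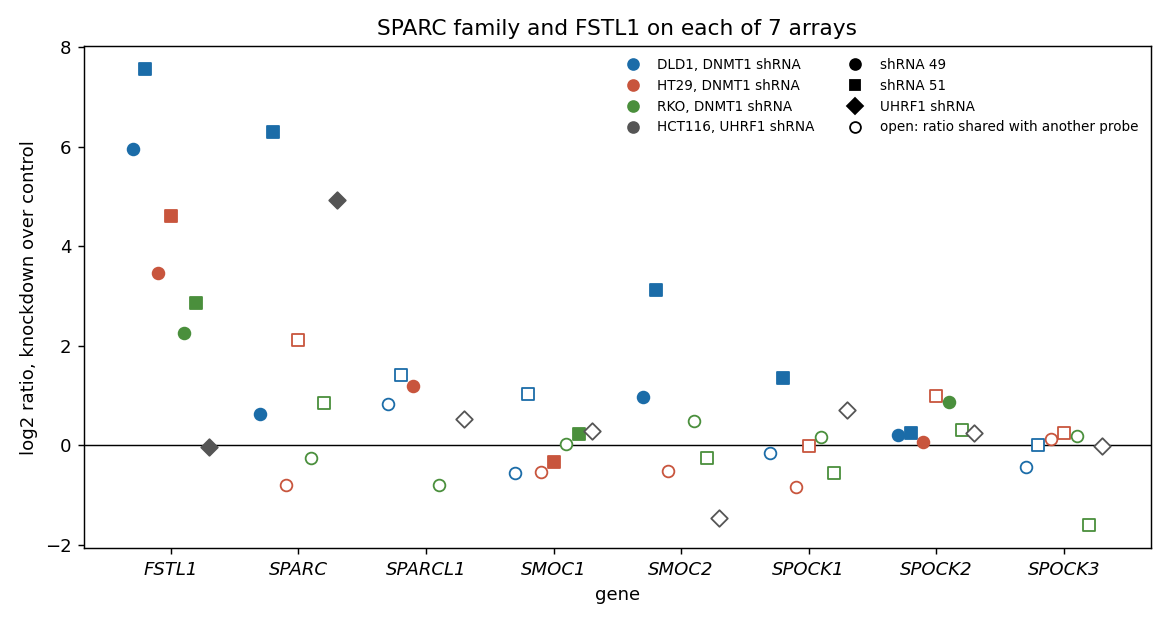
Log2 ratio of knockdown over control (vertical axis) for each of the 8 genes (horizontal axis), 1 point per array, coloured by cell line and shaped by shRNA; open points rest at least in part on a ratio that another probe of the array shares. FSTL1 lies between 2.26 and 7.57 under DNMT1 knockdown and at -0.04 under UHRF1 knockdown, while SPARC reaches 6.30 in DLD1 with shRNA 51 and 4.93 on the UHRF1 array.

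SPARC had ratios above 2 on 3 arrays, and those of them from DNMT1 knockdown were both made with shRNA 51. On all 3 of these arrays, the UHRF1 array included, the knockdown RNA carried Cy5. For SPARC, dye orientation therefore cannot be told apart from either knockdown on them. Its probe (A_23_P7642) read 0.62 in DLD1 with shRNA 49 and 6.30 with shRNA 51, the latter 78.8-fold. In HT29 it read -0.80 and 2.12, and in RKO -0.25 and 0.85, again with shRNA 49 first. On the UHRF1 array it read 4.93, or 30.4-fold, where it ranked 5 of 18175 genes. With the less certain direction of that array turned, it would read -4.93 and rank 18171. This value is one the set was chosen on. In each line the shRNA 51 array lay above the shRNA 49 array, with gaps of 5.68 (DLD1), 2.92 (HT29) and 1.10 (RKO).

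The mean of SPARC over the 6 DNMT1 arrays was 1.47 ± 0.70 (SE, n = 6) and did not pass (limma, adjusted p = 0.490). With the DLD1 shRNA 51 array left out it was 0.69 (adjusted p = 0.360). Using shRNA 49 alone gave -0.14, and shRNA 51 alone gave 3.09. The 4 SPARC values of HT29 and RKO are shared ratios, and the remaining 3 are not, so without shared ratios SPARC could not be tested under DNMT1 knockdown. In HT29 and RKO together it averaged 0.48 ± 0.28 (SE, n = 4, adjusted p = 0.636 by limma).

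The difference between the shRNAs was 3.23 ± 0.90 for SPARC (shRNA 51 minus shRNA 49, SE, n = 6). It did not pass (limma, adjusted p = 0.407, unadjusted p = 0.0170), and neither did any other gene on the array, so the share called was 0%, while 1982 of 17623 genes had an unadjusted p under 0.05. SPARC was chosen on the UHRF1 array, which has the dye orientation of shRNA 51. The p-values of this difference for SPARC are therefore not free of the choice, and nothing is read from them. For FSTL1 the same difference, which includes the DLD1 values the set was chosen on and so carries no test, was 1.11 ± 0.32, and after quantile normalization of the arrays it turned to -1.05. Ratios spread more widely on the shRNA 51 arrays, with interquartile ranges of 0.778 to 0.968 against 0.558 to 0.726, and their part in these differences was not tested. For SPARC the difference kept its sign after quantile normalization, at 2.46 (adjusted p = 0.368).

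**Figure D2:**
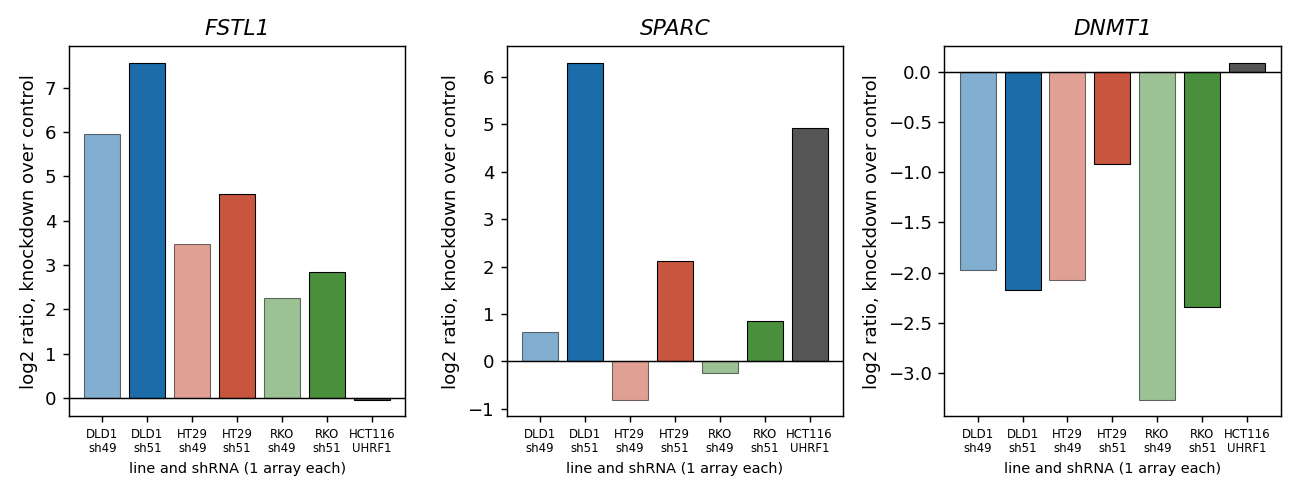
Log2 ratio of knockdown over control on each of the 7 arrays (1 bar per array, pale for shRNA 49) for FSTL1, SPARC and DNMT1, with vertical scales that differ between panels. FSTL1 is at 2.26 or above on all 6 DNMT1 arrays and at -0.04 under UHRF1 knockdown, whereas SPARC is at 4.93 there and at -0.80 and -0.25 in HT29 and RKO with shRNA 49.

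FSTL1 and SPARC can be set beside each other only as a description. Across the 6 DNMT1 arrays their Pearson correlation was 0.81, and across all 7 arrays it was 0.19, as a description over arrays that share lines and, possibly, control RNA. The correlation of 0.81 includes the DLD1 ratios of FSTL1, which the set was chosen on. Both genes had their highest ratio in DLD1 with shRNA 51 (7.57 and 6.30). The lower correlation rests on the UHRF1 array, where the value of SPARC is one the set was chosen on. Neither correlation is therefore evidence of shared or of separate patterns. The ratios of DNMT1 to the control of its own line were lowest in RKO (-3.27 and -2.35), where FSTL1 also had its lowest ratios of the 3 lines.

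SPARCL1, whose protein takes part in synapse formation and cell adhesion, had a value on 4 of the 6 DNMT1 arrays and was not tested over the lines. It read 0.84 and 1.41 in DLD1, 1.19 in HT29 with shRNA 49 and -0.81 in RKO with shRNA 49, and 0.53 on the UHRF1 array. The HT29 value alone was not a shared ratio. The DLD1 and HT29 values were above 0 and the RKO value below it.

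SMOC2, known as a gene of intestinal stem cells, read 0.97 and 3.12 in DLD1, neither of them a shared ratio. In HT29 it read -0.51 with shRNA 49 and had no value with shRNA 51, and in RKO it read 0.48 and -0.26. After UHRF1 knockdown it read -1.45, a shared ratio and the lowest of the 8 genes there. The DLD1 arrays lay above the others, and the mean of 0.84 ± 0.54 (SE, n = 5) did not pass (limma, adjusted p = 0.617). Without the DLD1 array with shRNA 51 it was 0.020, and without the RKO array with shRNA 51 it was 1.63 (adjusted p = 0.125). Its relative SMOC1, an antagonist of BMP signalling, averaged -0.03 ± 0.22 (SE, n = 6, adjusted p = 0.978). The probes of SMOC1 differed: the probe A_24_P150466 stayed between -0.34 and 0.29 on all 7 arrays, while A_24_P258473 ranged from -1.01 to 1.99 over the 4 arrays where it had a value, 3 of them shared ratios.

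The testicans are proteoglycans, and testican-1, the product of SPOCK1, can inhibit the protease cathepsin L. SPOCK2, averaged over its probes, was the member with the narrowest range, between 0.07 and 0.99 on the 6 DNMT1 arrays and above 0 on each. Its mean of 0.45 ± 0.19 (SE, n = 6) did not pass (limma, adjusted p = 0.455). The probe A_23_P161280 lay between 0.16 and 0.85 on all 7 arrays, none of them shared, and the probe A_24_P321093 between -0.18 and 1.35. Of the values of A_24_P321093, 3 were shared, among them the 1.35 in HT29 with shRNA 51. That probe was below 0 in DLD1 with shRNA 51 (-0.17) and in HT29 with shRNA 49 (-0.02). After UHRF1 knockdown these probes read 0.67 and -0.18.

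SPOCK1 ranged from -0.85 to 1.36 with a mean of -0.01 ± 0.30 (SE, n = 6, adjusted p = 0.997), and 6 of its 7 values were shared ratios. SPOCK3 ranged from -1.61 to 0.25 with a mean of -0.25 ± 0.29 (SE, n = 6, adjusted p = 0.795), and all 7 of its values were shared. For SPOCK1 the lines overlapped. For SPOCK3 both HT29 arrays lay above both DLD1 arrays, while RKO spanned them. For UHRF1 knockdown SPOCK1 read 0.70 and SPOCK3 -0.03.

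**Figure D3:**
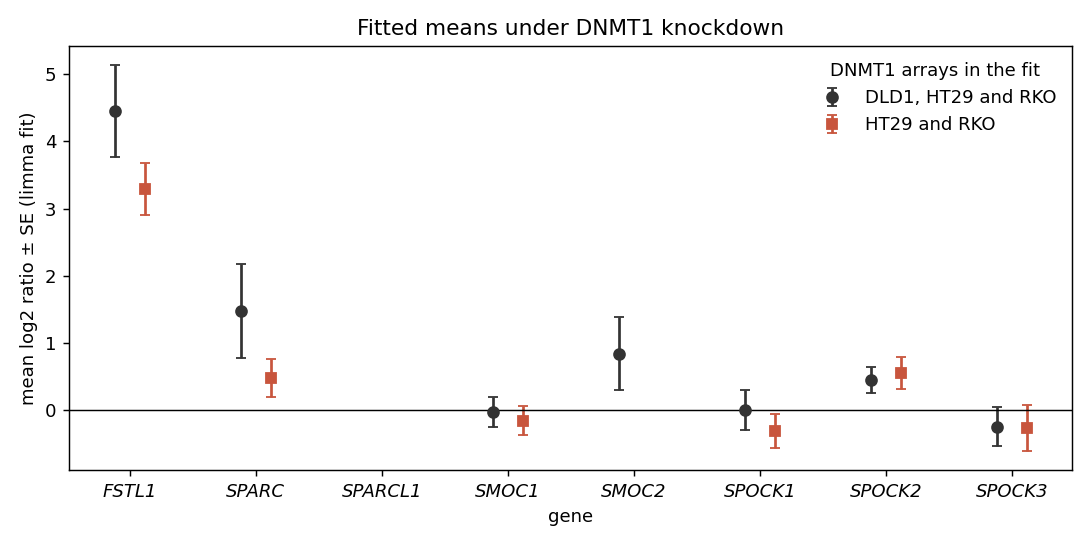
Mean log2 ratio of knockdown over control with its standard error from limma (vertical axis) for each gene under DNMT1 knockdown, over DLD1, HT29 and RKO (circles) or over HT29 and RKO (squares); SPARCL1 was not tested in either fit and SMOC2 not in the second. FSTL1 stands at 4.45 and 3.29, and every other mean lies under 1.5.

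Of the 6 members tested over the 3 lines beside FSTL1, 0 passed and 3 lay above 0. Their median was 0.22, against 0.03 over all 17623 genes, of which 0.397% passed. None of the 6 had an unadjusted p under 0.05 in limma, against 11.4% of all genes. Within DLD1, HT29 and RKO again 0 of the 6 passed (unadjusted p under 0.05 for 2 in DLD1, 0 in HT29 and 0 in RKO, against 8.80%, 8.03% and 12.5% of all genes). Over HT29 and RKO 0 of 5 passed, with 0 at an unadjusted p under 0.05 against 8.97% of all genes. The test of a difference between the lines called 0 of them and 0% of all genes (smallest adjusted p of the 6 = 0.739), with 0 of the 6 and 6.45% of all genes at an unadjusted p under 0.05. On the UHRF1 array 1 of the 8, SPARC, was at least 2-fold higher and 1, SMOC2, at least 2-fold lower, against 4.62% and 2.32% of 18175 genes, with no replicate. SPARC was chosen on this value and nothing is read from its count; of the other 7 members 0 were at least 2-fold higher and 1 lower. With the direction of that array turned, higher and lower change places.

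The genes most like FSTL1 over the 7 arrays were INHBB, which encodes an activin subunit (Pearson r = 0.98), SPTSSB, a subunit of the enzyme that starts sphingolipid synthesis (0.96), the cystatin gene CST6 (0.94), the keratin gene KRT7 (0.93) and the Wnt ligand gene WNT7A (0.92). They ranked highest among 1715 genes that were measured on each of the 7 arrays with an SD of at least 1. Shared ratios enter on 3 arrays for INHBB, 4 for SPTSSB, 1 for CST6, 1 for KRT7 and 4 for WNT7A. INHBB read 3.14 and 4.03 in DLD1, 1.28 and 3.09 in HT29, 0.55 and 1.17 in RKO and -1.21 on the UHRF1 array. Like FSTL1 it was highest in DLD1 and lowest among the lines in RKO. INHBB was picked by its correlation with FSTL1 over these same arrays, so this order is no separate result.

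The genes most like SPARC were KRTAP2-3 (0.95), a hair keratin-associated gene, SIDT1 (0.94), LRRTM4 (0.93), a synaptic adhesion gene, MYZAP (0.93) and INPP5D (0.91), a phosphatase gene of blood cells. INPP5D held no shared ratio and read 4.16 in DLD1 with shRNA 51 and 2.28 on the UHRF1 array. All 7 ratios of LRRTM4 rest at least in part on shared ones. With 7 arrays and 1715 candidates such likeness is loose, and it is given as a description.

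**Figure D4:**
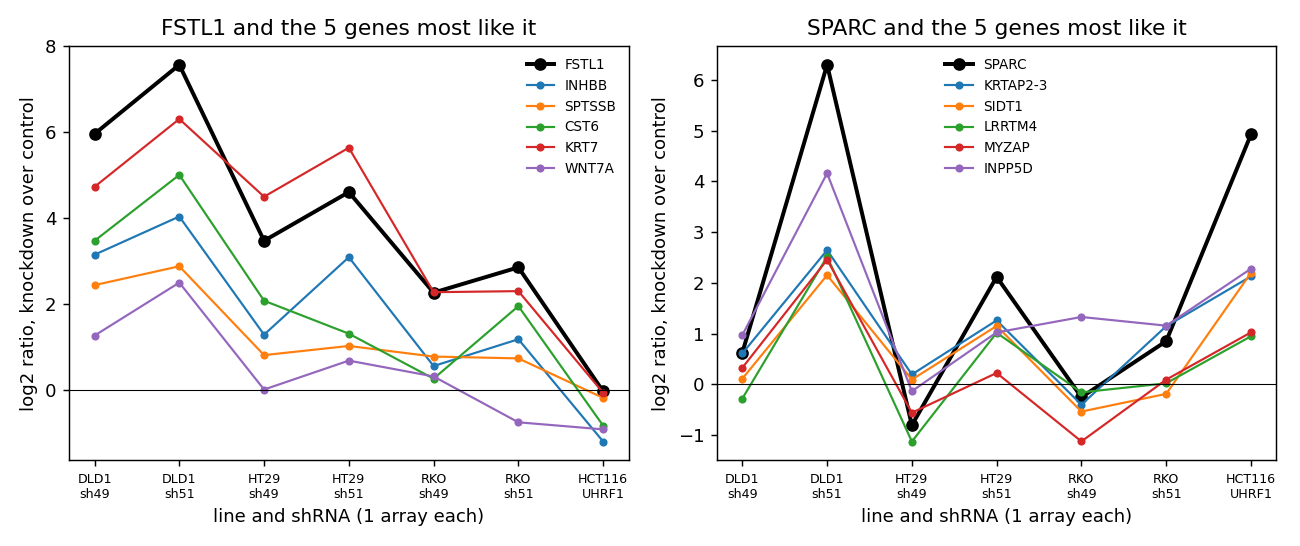
Log2 ratio of knockdown over control (vertical axis) on each of the 7 arrays (horizontal axis) for FSTL1 (left, black) and SPARC (right, black) with the 5 genes of highest Pearson correlation; lines only join the points of a gene. The genes beside FSTL1 are highest in DLD1 with shRNA 51 and lie below 0 on the UHRF1 array, and those beside SPARC are highest in DLD1 with shRNA 51, except SIDT1 (2.15 there), which is slightly higher on the UHRF1 array.

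Genes that work with the family were read from lists based on their known roles. Among genes of BMP and activin signalling, whose ligands FSTL1 and the SMOC proteins bind or oppose, 0 of 24 tested passed over the 3 lines, 13 lay above 0 and the median was 0.03. The activin subunit gene INHBB (2.21 ± 0.46, adjusted p = 0.158) and the ligand gene BMP7 (2.21 ± 0.40, adjusted p = 0.113) had the highest means, and the BMP antagonist NOG (-0.47) and the receptor ACVR1 (-0.20) the lowest (SE, n = 6, limma). The BMP target genes ID1, ID2 and ID3 stood at -0.06, -0.09 and -0.07.

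Among collagens and other partners of SPARC 0 of 19 passed, 15 lay above 0 and the median was 0.42. The fibrillar collagen genes COL5A1 (1.23, adjusted p = 0.459) and COL5A2 (0.81, adjusted p = 0.318) were highest, and the growth factor VEGFA (-0.49) and the collagen receptor DDR2 (-0.29) lowest. COL5A1 read 3.04 and 3.23 in RKO and between -0.23 and 1.15 in DLD1 and HT29. The main collagen ligands of SPARC, COL1A1 and COL1A2, stood at 0.26 and 0.51. Of the proteases and inhibitors around the testicans 0 of 11 passed, with 9 above 0 and a median of 0.46; the inhibitor TIMP2 stood at 1.85 (adjusted p = 0.252) and the membrane protease MMP14 at 0.95, MMP16 at -0.43 and MMP2 at -0.28.

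Other matricellular genes gave 0 of 18, with 14 above 0 and a median of 0.14. SPP1 (osteopontin, 1.61, adjusted p = 0.447) and TGFBI (0.98, adjusted p = 0.236) were the highest, the thrombospondin genes THBS4 (-0.41) and THBS2 (-0.36) the lowest. With shRNA 51 SPP1 read 5.80 in RKO and 2.84 in HT29, and it read between -0.01 and 0.79 on the remaining DNMT1 arrays. Genes with a follistatin or Kazal-type domain gave 0 of 12, with 6 above 0 and a median of 0.05. TMEFF1 and IGFBP7 (both 0.45) were highest there, RECK (-0.45) and FSTL4 (-0.40) lowest. For comparison, 55.2% of all genes tested lay above 0.

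SPARC and several of its relatives are abundant in stromal cells, which a pure line should lack. LUM (1.68, limma adjusted p = 0.626) and FAP (1.03) were the highest fibroblast markers, and FBN1 (-0.22) and THY1 (-0.07) the lowest. LUM read 0.77 in DLD1 with shRNA 49, 3.41 and 5.77 in HT29, -0.43 and -1.47 in RKO and 2.18 on the UHRF1 array. It had no value in DLD1 with shRNA 51. Fibroblast markers gave 0 of 8 passing (4 above 0), with a median of -0.00186. Their median was -0.18 in DLD1 with shRNA 51, the array where FSTL1 and SPARC were highest, and ranged from -0.08 to 0.87 over the remaining DNMT1 arrays; for UHRF1 knockdown it was 0.42. PECAM1 (1.32, limma adjusted p = 0.172) and ROBO4 (1.05) were the highest endothelial markers, and CDH5 (-0.10) and KDR (0.12) the lowest. ROBO4 read 4.37 in RKO with shRNA 51 and between 0.04 and 0.74 on the remaining DNMT1 arrays. Endothelial markers gave 0 of 9 passing (8 above 0), with a median of 0.50. Their median was 0.51 in DLD1 with shRNA 51, 1.10 in RKO with shRNA 51, between 0.06 and 0.26 on the remaining DNMT1 arrays and -0.06 for UHRF1 knockdown, and the part of either marker list in the ratios of the family was not tested. Colon epithelial markers had a median of 0.11, with 0 of 10 passing. EPCAM (1.19) and KRT19 (0.94) were highest there, and KRT20 (-0.64) and CDX2 (-0.44) lowest. In RKO with shRNA 51 EPCAM read 4.74 and KRT19 4.13. On the remaining DNMT1 arrays EPCAM read between 0.03 and 1.44 and KRT19 between -0.80 and 2.46.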

How the data were processed

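RNA of 7 two-colour Agilent arrays was read from the authors' deposited table, with a log2 ratio per probe and array. The submitters' processing notes name limma; the sources used here do not give the log base (log2 taken from the range), background correction, normalization or ratio direction. Of 41000 probes, 29341 had exactly 1 gene symbol in GEO's platform annotation; their ratios were averaged per gene. Genes with a value on at least 5 of 6 DNMT1 arrays were tested (17623), or on all 4 arrays for HT29 and RKO (15985).

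Tests used limma 3.58.1 in R 4.3.3, two-sided, over all genes, with Benjamini-Hochberg adjustment and a threshold of 0.05. The 3-line mean had an shRNA term and the line as random block (correlation 0.165); line coefficients, their differences and the shRNA contrast came from 1 coefficient per line plus the shRNA. With this term the SE leaves out what separates the shRNAs. The fits were tested on simulated data. Figures used matplotlib 3.10.9. The precision is limited by the number of arrays.

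Members and lists were chosen with earlier results of these data known. Named genes were all members, the 5 genes most like FSTL1 and SPARC, and from each list the 2 highest and 2 lowest means, with any gene past the threshold; COL1A1, COL1A2, ID1, ID2 and ID3 were added for their roles. Alternatives were quantile normalization, no shared ratios, other minimum values, medians or single probes, no shRNA term, no block, array weights, 1 shRNA alone and each array left out.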

Additional observations from a re-analysis of the deposited data

Results flagged for a closer look

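SMOC1 lay below 0 on both HT29 arrays and above 0 on both RKO arrays, with means of -0.44 and 0.12 and a difference of -0.57 (HT29 minus RKO). This pair of lines was not tested alone; the limma test over the 3 lines gave an adjusted p of 0.797. In RKO with shRNA 49 the value of 0.03 is the mean of probes at -0.15 and 0.20, and in HT29 with shRNA 49 the value of -0.54 is the mean of probes at -0.07 and -1.01; the second of each pair is a shared ratio from the probe A_24_P258473, which has no value in either line with shRNA 51. The probe A_24_P150466, measured on all 4 arrays, read -0.07 and -0.34 in HT29 and -0.15 and 0.22 in RKO, so the lines overlap on it.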

How the results depend on the processing

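FSTL1 kept its sign under DNMT1 knockdown in every alternative, while its size and its call moved. Its mean over the 3 lines, 4.45, lay between 3.86 and 4.89 under all alternatives outside the 1-shRNA fits, which gave 3.89 and 5.01. In HT29 (4.03) it passed after quantile normalization (4.24), without shared ratios and with values on all 6 arrays (4.03 in both), and lay between 4.02 and 4.05 with 1 array left out, passing without either RKO array; in RKO it passed without shared ratios (2.55); over HT29 and RKO it lay between 2.86 and 3.73 with 1 array left out. Leaving out an array gave 0 to 1 called members in HT29 and 0 to 1 over HT29 and RKO; FSTL1 was the 1 member also called in HT29 under quantile normalization, without shared ratios and with all 6 values, and in RKO without shared ratios. The cause was not tested, though fewer genes were tested without shared ratios and with all 6 values. Calls within HT29 and within RKO take their spread in part from the DLD1 arrays on which FSTL1 was chosen, and nothing is read from them.

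The number of all genes called moved widely. Over the 3 lines it was 70, and 28 after quantile normalization, 10 without the shRNA term, 7 with the arrays of a line averaged, 5 with shRNA 49 alone, 13 with shRNA 51 alone and 8 to 206 with 1 array left out. In DLD1, HT29 and RKO (4, 3 and 8) it was 35, 34 and 24 after quantile normalization, 55, 52 and 189 without shared ratios, 14, 14 and 34 with all 6 values, 0 in each without the shRNA term, 0 in DLD1 and HT29 per probe, and 0 to 42, 0 to 20 and 0 to 240 with 1 array left out. Over HT29 and RKO (17) it was 40 without shared ratios, 4 without the shRNA term and 0 to 508 with 1 array left out. Between the shRNAs (0) it was 3 without shared ratios and 4 with the line as random block.

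Signs turned for values that had passed no test. With shRNA 49 alone SPARC was -0.14; with shRNA 51 alone SMOC1 was 0.30 and SPOCK1 0.26, and with array weights SPOCK1 was 0.044. With 1 array left out SMOC1 lay between -0.22 and 0.13, SPOCK1 between -0.28 and 0.23, SPOCK3 between -0.42 and 0.056 (HT29 and RKO -0.73 to 0.20) and SPARC in RKO between -1.30 and 1.90. After quantile normalization the shRNA difference was -1.05 for FSTL1, -0.087 for SMOC2 and -0.056 for SPOCK2.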

Other observations

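The nearest protein-coding genes on either side of FSTL1 and SPARC, picked by their place in the RefSeq table after the values of the members were seen, are given by their values. Beside FSTL1 on chromosome 3, NDUFB4, a subunit of respiratory complex I, read between 0.09 and 0.29 on the 6 DNMT1 arrays, and LRRC58 between -0.93 and 1.22 (adjusted p = 0.621 and 0.882 over the 3 lines, limma). Beside SPARC on chromosome 5, the cadherin gene FAT2 read 0.07 and the copper chaperone gene ATOX1 0.94 in DLD1 with shRNA 51, where SPARC read 6.30. On the UHRF1 array, where SPARC read 4.93, they read 0.05 and 0.10. In RKO with shRNA 51, FAT2 at 1.57 and ATOX1 at 1.10 lay above SPARC at 0.85. In HT29 and RKO, FAT2, like SPARC, was lower for shRNA 49 (-0.46 and -0.47) than for shRNA 51 (1.16 and 1.57). In DLD1, where SPARC had its largest gap, FAT2 went the other way, at 0.25 with shRNA 49 and 0.07 with shRNA 51. The HT29 value of 1.16 equals, to the last digit, those of CHST3 and SLC10A1 on that array.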
